A study of Mus musculus with 4 samples.

Results

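The synaptic vesicle and exocytosis genes are the families that dock, prime and fuse secretory vesicles with a membrane. They were chosen by symbol: the synaptotagmins, syntaxins, syntaxin-binding proteins, VAMPs, synapsins, SV2 proteins, Rab3 GTPases, RIM and Unc13 proteins and complexins, with Snap25 and Syp. Of the 22180 genes named on the array, 69 met this rule, read from 74 probe sets. For genes with several probe sets, the brightest by 4-tumour mean was used. Of these 69, 68 are protein-coding genes and 1, Stxbp3-ps, is annotated as a transcribed pseudogene.

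Total RNA of 4 primary mouse tumours was hybridised to Affymetrix arrays, 1 array per tumour. All 4 tumours form 1 group, each carrying an Alk mutation together with TH-MYCN and Stat6-/-, with C57BL\6 x 129Sv/J given as the strain. Alk is a receptor tyrosine kinase of sympathetic neuroblasts, TH-MYCN places MYCN under the promoter of tyrosine hydroxylase, which is active in catecholamine-making cells, and Stat6 is the transcription factor activated by interleukins 4 and 13. The labels do not state which Alk mutation was used, the age or sex of the animals, or whether each tumour came from its own animal, so the spread between tumours may be in part technical. Since all samples belong to 1 group, no condition could be compared with another and no p-value was computed.

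Fusion of a vesicle is driven by SNARE proteins: a VAMP on the vesicle zips together with a syntaxin and a SNAP protein on the target membrane. Unc13 proteins prepare the complex, complexin holds it, and a synaptotagmin releases it when calcium enters. Sympathetic neurons and chromaffin cells use this machinery to release noradrenaline and neuropeptides, and other members of the same families serve traffic inside every cell.

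A gene counted as detected when its 4-tumour mean exceeded a log2 signal of 6.17, the 95th percentile of the means of 1394 genes for smell and pheromone receptors, taken as silent in these tumours. A gene below this floor is undetermined, not shown to be absent. Probe sets differ in brightness by their design, so levels are compared only within a gene. The array medians lay between 5.15 and 5.29. Of the sympathetic markers, 10 of 10 measured were detected, among them Dbh, the enzyme that makes noradrenaline, at 10.64 ± 0.33 (SD, n = 4). The tissue label is the sternocleidomastoid, a neck muscle. Markers of skeletal muscle were detected in 0 of 12 cases, with means from 4.06 to 5.72. Stat6 measured 5.83 ± 0.07 (SD, n = 4), below the floor, and the part of the gene that its probe set reads is not known here.

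Of the 69 members, 39 (56.5%) were detected, where 40.5% of all genes were. In bulk tissue, a smaller number of cells of a type and less RNA per cell cannot be told apart. All 4 measured neuronal SNAREs were detected, as were 6 of 7 vesicle proteins, 6 of 8 priming and active zone proteins and 3 of 4 Rab3 GTPases. Synaptotagmins had 8 of 17 detected, and complexins 1 of 4. The 30 members under the floor had means from 3.45 to 6.17. Vamp5 lay just under the floor, with 6.02, 6.27, 6.15 and 6.23 in tumours 1 to 4, and Stx17, at 6.29 ± 0.04 (SD, n = 4), just above it.

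**Figure D1:**
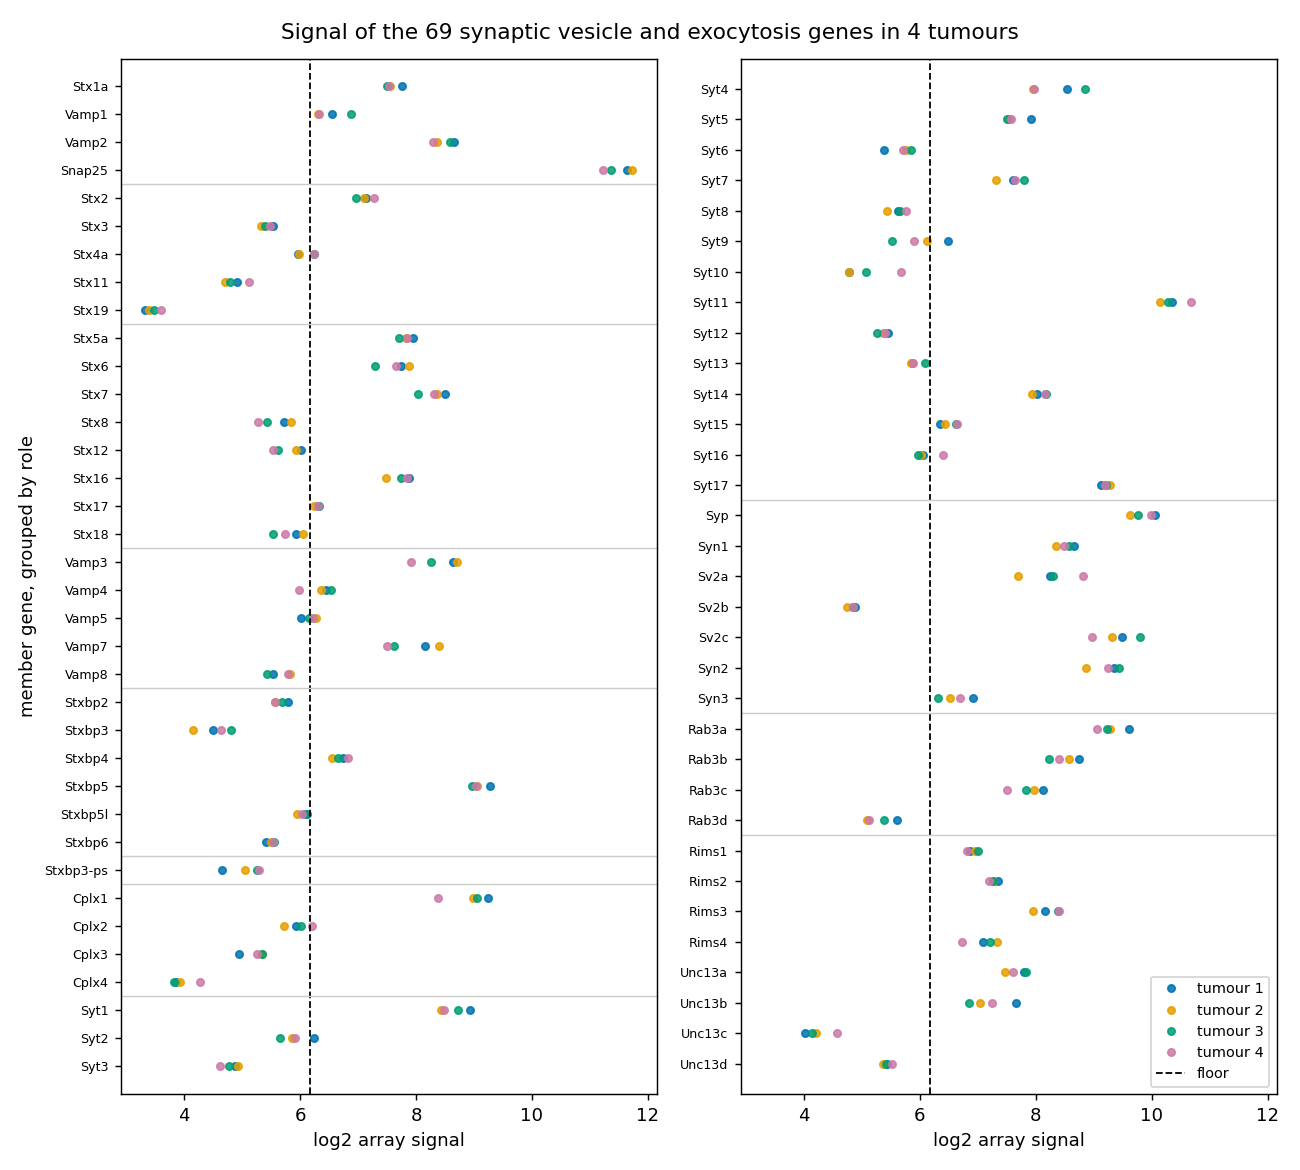
Log2 array signal (x axis) of the 69 members, each on its own line and grouped by role, with 1 point per tumour and the background floor of 6.17 as a dashed line. The points of most members lie close together, and the 39 members with a mean to the right of the line are the detected ones.

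The fusion core of the synapse was present in each tumour. Snap25, the plasma membrane SNARE that supplies a pair of helices to the complex, measured 11.65, 11.73, 11.36 and 11.22 in tumours 1 to 4. Stx1a, the neuronal syntaxin, measured 7.76, 7.55, 7.49 and 7.54. Vamp2, the main synaptobrevin of the brain, measured 8.66, 8.37, 8.59 and 8.29. These genes differed little between tumours, with ranges of 0.51, 0.26 and 0.37 log2 units. The other synaptobrevin, Vamp1, read 6.55, 6.30, 6.88 and 6.32 and so stood highest in tumour 3, all 4 values lying no more than 0.71 above the floor.

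Of the syntaxins that serve the plasma membrane outside the synapse, 1 of 5 was detected. This was Stx2, at 7.12 ± 0.12 (SD, n = 4). Stx3, Stx4a, Stx11 and Stx19 had means from 3.45 to 6.11. Syntaxins of internal membranes were detected in 5 of 8 cases. Stx7, which acts in late endosome fusion, measured 8.30 ± 0.20, Stx5a, of traffic between the endoplasmic reticulum and the Golgi, 7.83 ± 0.10, and Stx16, of the trans-Golgi, 7.74 ± 0.18 (SD, n = 4). Stx6, also of the trans-Golgi and endosomes, was lowest in tumour 3, with 7.74, 7.88, 7.30 and 7.65 in tumours 1 to 4. Stx17, the autophagosome syntaxin, had the narrowest range of all detected members, 0.09. Stx8, Stx12 and Stx18 lay under the floor, with means from 5.56 to 5.81.

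The VAMPs of endosomes and the Golgi had a median range of 0.79, against 0.44 for the neuronal SNAREs, and all 3 detected were lowest in tumour 4, under each of 4 scalings of the arrays. These were the deposited values, 2 ways of centring them on detected genes, and a further quantile normalization. Vamp7, a VAMP of late endosomes and lysosomes that also takes part in neurite growth, measured 8.15, 8.40, 7.62 and 7.49 in tumours 1 to 4. Vamp3, of recycling endosomes, measured 8.63, 8.70, 8.26 and 7.91. Vamp4, of the trans-Golgi, measured 6.45, 6.36, 6.54 and 5.98, with tumour 4 under the floor. Their ranges were 0.91, 0.79 and 0.56. Vamp7 lies on chromosome X. So do Syp and Syn1, at 9.98 and 8.48 in tumour 4, both inside the range of the other tumours. Xist, the RNA of the inactive X, stood at 10.13 in tumour 4, against 3.89 to 3.95 elsewhere. No other tumour had this signal, so what sets tumour 4 apart, for any member, cannot be told apart from a difference in sex. The part of sex in the values of Vamp7 and of the other members was not tested. Vamp8, at 5.64 ± 0.19 (SD, n = 4), was under the floor.

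Of 6 syntaxin-binding proteins, 2 were detected. Stxbp5, tomosyn, which ties up syntaxin and Snap25 and so restrains release, measured 9.27, 9.05, 8.97 and 9.04. Stxbp4, a partner of syntaxin 4, measured 6.73, 6.56, 6.66 and 6.82. Neither spanned more than 0.31 log2 units. Stxbp2, Stxbp3, Stxbp5l and Stxbp6 had means from 4.52 to 6.04, and the pseudogene Stxbp3-ps, whose probes may share signal with Stxbp3, had 5.06. Stxbp2, Stx11 and Unc13d, which together serve granule release in cytotoxic lymphocytes, were all under the floor, at 5.65 ± 0.11, 4.88 ± 0.18 and 5.43 ± 0.07 (SD, n = 4). Of the T and NK cell markers 1 of 7 was detected, and of platelet and mast cell markers 0 of 7. The detected marker was Prf1, the gene of perforin, above the floor in each tumour, at 6.28, 6.28, 6.60 and 6.83 in tumours 1 to 4.

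Cplx1, a complexin that clamps and then assists the SNARE complex, was lowest in tumour 4. It measured 9.24, 8.99, 9.05 and 8.37 in tumours 1 to 4. The first 3 tumours lay within 0.25 of each other and tumour 4 lay 0.61 below the lowest of them. Cplx2, its close relative, had a mean under the floor and values of 5.92, 5.73, 6.01 and 6.20. Cplx3 and Cplx4, known from ribbon synapses of the retina, had means of 5.22 and 3.97.

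Among the synaptotagmins, Syt1, the fast calcium sensor of synchronous release, was detected while the other fast sensors, Syt2 and Syt9, lay under the floor. Syt1 measured 8.93, 8.43, 8.72 and 8.48 in tumours 1 to 4. Syt2 averaged 5.91 ± 0.24 and Syt9 6.00 ± 0.40 (SD, n = 4), each above the floor in tumour 1 alone, at 6.23 and 6.48. Syt7, a slower sensor of high calcium affinity, measured 7.60, 7.30, 7.79 and 7.64. Syt5 stood at 7.91 in tumour 1, while tumours 2 to 4 gave 7.50 to 7.57.

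Syt4, a synaptotagmin found on dense-core vesicles and held not to trigger fusion in mammals, had the widest range of the detected synaptotagmins, 0.90. Its values were 8.54, 7.94, 8.85 and 7.97, so that tumours 1 and 3 lay above tumours 2 and 4 with a gap of 0.56. Only 1 of its 3 probe sets gave this signal. The others had means of 5.41 and 4.43, under the floor. The first of them spanned 0.11 log2 units, and the second gave 4.26, 4.30, 4.84 and 4.33, also highest in tumour 3. Above the floor, the pattern of Syt4 thus rests on 1 probe set.

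Syt11, a family member that does not bind calcium and acts in vesicle recycling, was highest in tumour 4, with 10.34, 10.14, 10.27 and 10.67 in tumours 1 to 4. Syt17, a relative found at the Golgi, was nearly constant at 9.20 ± 0.07, as was Syt14 at 8.07 ± 0.11 (SD, n = 4). Syt15 stood at 6.51 ± 0.15 (SD, n = 4), near the floor. The 9 synaptotagmins under the floor were Syt2, Syt3, Syt6, Syt8, Syt9, Syt10, Syt12, Syt13 and Syt16, with means from 4.80 to 6.11. Among them Syt10 was highest in tumour 4, at 5.67 against 4.78 to 5.06 in the others. The background was not level either: the median of the receptor genes was 3.85, 3.95, 4.10 and 4.10 in tumours 1 to 4.

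The vesicle's own membrane and coat proteins held the single member that differed by 2-fold. Sv2a, a glycoprotein of all synaptic vesicles and the target of the antiepileptic levetiracetam, measured 8.24, 7.69, 8.30 and 8.81 in tumours 1 to 4, a range of 1.12 log2 units or 2.17-fold. Sv2c, its relative and a receptor for botulinum neurotoxin A, measured 9.48, 9.32, 9.80 and 8.97. Tumour 4 thus held the highest Sv2a and the lowest Sv2c value, while tumour 3 held the highest Sv2c, under each of the 4 scalings. Tumour 4 was also the only tumour with high Xist, and the part of sex in these values was not tested. The third relative, Sv2b, was at 4.83 ± 0.06 (SD, n = 4), under the floor. Without tumour 2 the range of Sv2a was 0.57 and without tumour 4 it was 0.61, so the 2-fold span needs both of those tumours.

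Syp, synaptophysin, a standard stain for neuroendocrine tumours, measured 10.05, 9.62, 9.76 and 9.98. Its second probe set gave 4.23, under the floor, and adds nothing. The synapsins tether vesicles to actin and to each other. Syn2 was lowest in tumour 2, with 9.35, 8.86, 9.43 and 9.24, and Syn1 was lowest there too, with 8.65, 8.35, 8.58 and 8.48. Syn3 followed another order, with 6.91, 6.53, 6.31 and 6.69.

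Upstream sequences are shown for Sv2a and Sv2c, since tumour 4 had the highest Sv2a and the lowest Sv2c value, for Syn1, whose start holds the left part of the RE1 element through which the repressor REST silences neuronal genes in other cells, and for Unc13b, an E-box holder with a wide range. Each is the 250 bases before the gene's start, from RefSeq on GRCm38.p6 and written along the gene's strand. They lie at chr3:96180977-96181226 on the plus strand for Sv2a, chr13:96132578-96132827 on the minus strand for Sv2c, chrX:20920919-20921168 on the minus strand for Syn1 and chr4:43058703-43058952 on the plus strand for Unc13b. Capitals mark matches, on either strand, to the E-box CACGTG, the cyclic AMP response element TGACGTCA, the left part of RE1, TTCAGCACC, the GC box GGGGCGGGG, the TATA box TATAAA and the CCAAT box.
Sv2a: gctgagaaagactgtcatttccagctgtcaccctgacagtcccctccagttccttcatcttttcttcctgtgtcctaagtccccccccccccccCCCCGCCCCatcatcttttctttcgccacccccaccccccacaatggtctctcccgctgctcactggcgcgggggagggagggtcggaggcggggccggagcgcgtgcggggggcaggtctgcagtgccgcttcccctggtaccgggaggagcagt
Sv2c: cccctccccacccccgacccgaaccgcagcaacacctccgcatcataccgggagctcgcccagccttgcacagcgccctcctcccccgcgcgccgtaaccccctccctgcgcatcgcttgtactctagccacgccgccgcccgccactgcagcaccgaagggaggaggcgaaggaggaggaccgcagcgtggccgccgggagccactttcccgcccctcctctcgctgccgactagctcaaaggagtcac
Syn1: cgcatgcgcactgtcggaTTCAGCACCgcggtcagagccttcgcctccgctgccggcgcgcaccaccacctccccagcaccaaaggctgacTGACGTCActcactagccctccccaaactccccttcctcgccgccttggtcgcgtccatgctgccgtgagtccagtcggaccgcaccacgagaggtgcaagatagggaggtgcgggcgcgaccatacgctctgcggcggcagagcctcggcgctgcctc
Unc13b: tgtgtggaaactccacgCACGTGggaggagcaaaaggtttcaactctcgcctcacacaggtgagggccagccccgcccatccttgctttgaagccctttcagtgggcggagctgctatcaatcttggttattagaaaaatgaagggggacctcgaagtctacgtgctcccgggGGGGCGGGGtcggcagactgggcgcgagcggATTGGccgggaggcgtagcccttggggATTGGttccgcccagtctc
Sv2a holds 1 GC box, on the opposite strand, and Sv2c holds none of the 6 motifs. Syn1 holds the RE1 letters from 232 to 224 bases before its start and a cyclic AMP response element from 159 to 152. In Unc13b the E-box lies from 233 to 228 bases before the start, with a GC box on the same strand and 2 CCAAT boxes on the opposite strand nearer to the start. No motif overlaps another in these windows.

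Such windows were found for 28 of the 39 detected members. An E-box, which MYC and MYCN bind with MAX among other factors, was present in 4 of the 28, Stx6, Syt14, Unc13b and Vamp4, and in 6.86% of all 27025 genes with a window. A GC box was present in 14 of 28 and in 11.8% of all genes. The members' windows were also richer in G and C, with a median of 59.2% against 52.4% over all windows. A TATA box was found in 2 of 28 and 14.3% of all genes, a CCAAT box in 10 of 28 and 37.5%, a cyclic AMP response element in 1 of 28 and 1.77%, and the RE1 letters in 1 of 28 and 0.348%. The 28 members were chosen as detected, while the shares over all genes include genes under the floor. Shares among detected genes alone were not computed, so these differences cannot be credited to the families. These matches describe letters, not binding, and a motif missing from the window may lie elsewhere.

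Rab3 GTPases ride on vesicles and bind RIM proteins at the release site. Rab3a, the main form of the brain, measured 9.61, 9.27, 9.24 and 9.05 in tumours 1 to 4, and Rab3b 8.74, 8.57, 8.23 and 8.40. Rab3c measured 8.12, 7.97, 7.83 and 7.50. All 3 were highest in tumour 1, under each of the 4 scalings. For Rab3c this rests on the brighter probe set: the other, also above the floor, gave 6.85, 7.35, 7.01 and 7.35, with tumour 1 lowest. Rab3d, a form of exocrine and immune cells, was at 5.30 ± 0.24 (SD, n = 4), under the floor.

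Among the proteins that build the release site, Unc13a and Unc13b, which prime vesicles by opening syntaxin, were detected, and Unc13c, a form of the cerebellum, lay under the floor at 4.23 ± 0.24 (SD, n = 4). Unc13a measured 7.79, 7.47, 7.83 and 7.61. Unc13b was more variable, with 7.66, 7.04, 6.84 and 7.25, and stood highest in tumour 1. Rims1 and Rims2, the long RIM scaffolds that recruit Unc13 and calcium channels, were nearly constant, at 6.91 ± 0.09 and 7.26 ± 0.07 (SD, n = 4). The short forms Rims3 and Rims4 differed in order: Rims3 measured 8.15, 7.95, 8.39 and 8.39, lowest in tumour 2, and Rims4 measured 7.08, 7.33, 7.21 and 6.73, lowest in tumour 4.

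**Figure D2:**
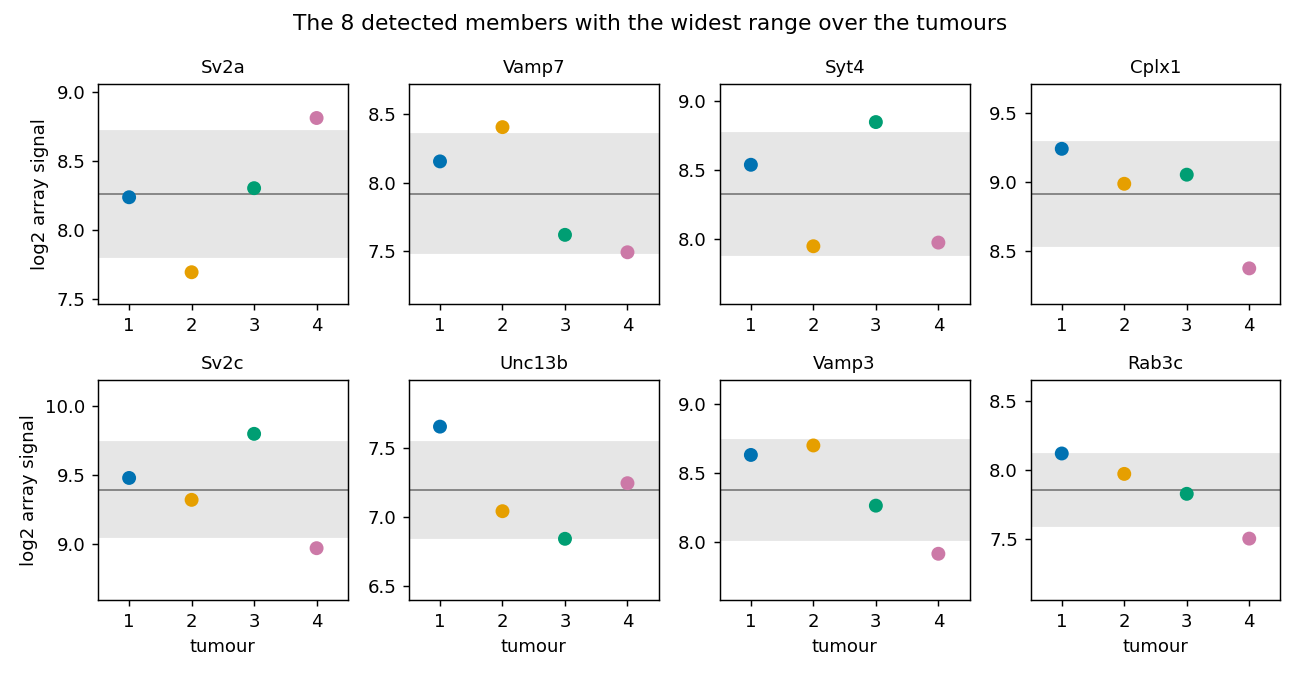
Log2 array signal (y axis, the same span of 1.6 units in each panel) of the 8 detected members with the widest range, by tumour (x axis), with the mean as a line and 1 SD on either side as a grey band. Tumour 4 is the lowest point for Vamp7, Cplx1, Sv2c, Vamp3 and Rab3c and the highest for Sv2a. In the dimmer probe set of Rab3c, not drawn, tumours 2 and 4 were highest, both at 7.35.

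Across these families most members differed by less than 2-fold between tumours. Of the 39 detected members, 1 (2.56%) had a range of at least 1 log2 unit, near the 4.26% of all 8989 detected genes. The median range was 0.48 for the members and 0.41 for all detected genes. A range of at least 0.5, a threshold added after the data were seen, was reached by 18 of 39 members (46.2%) and by 35.1% of all detected genes. A single tumour lay far from the other 3, by a Dixon's ratio (its distance from the next tumour divided by the range) past the 95% value for 4 samples, in 2 of 69 members, where it did in 4.55% of all genes, and in 1 of the 39 detected members, where it did in 3.83% of detected genes. Between pairs of tumours, members that differed by at least 0.5 numbered from 3 of 39 for tumours 2 and 1, where 5.14% of detected genes did, to 8 of 39 for tumours 4 and 1, where 17.4% did. Without tumour 1 the number of all detected genes with a range of 1 was 251, and without tumour 4 it was 228, against 383 with all tumours.

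**Figure D3:**
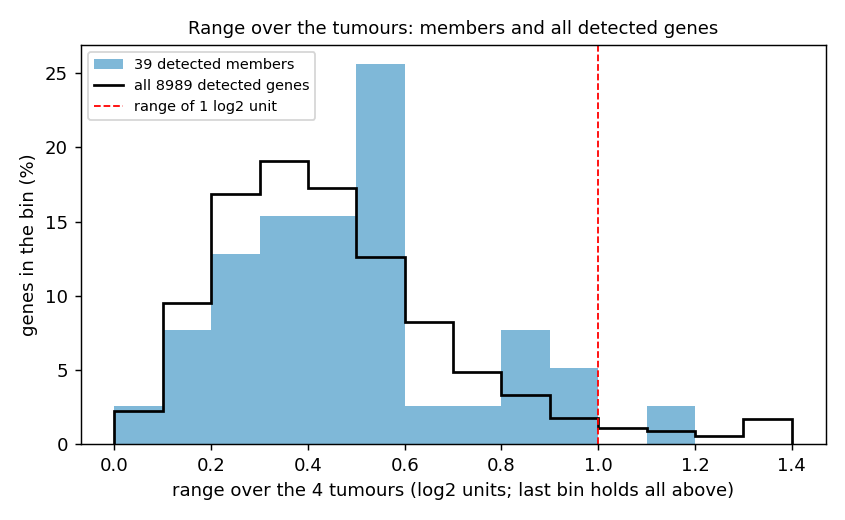
Share of genes (y axis, percent) by range over the 4 tumours (x axis, log2 units, in bins of 0.1), for the 39 detected members (filled) and all 8989 detected genes (line). The members cover the same span as genes at large up to 1.12, and 1 member, Sv2a, lies to the right of the dashed line at 1.

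Small shared offsets remained within this span. The arrays themselves were not level: the median deviation of detected genes from their own means was 0.12, 0.04, -0.09 and -0.08 in tumours 1 to 4. The members were also read against detected genes of like level: the deviation of each from its own mean, less the median deviation of the genes in the same of 20 bins of mean level. On this scale the members' median was -0.11 ± 0.21 (SD over 39 members) in tumour 2, with 30 of 39 below 0, where 49.9% of detected genes lie by construction. In tumour 3 it was 0.09 ± 0.20, with 28 of 39 above 0, and it was -0.0043 when nothing was subtracted. Tumour 4 gave 0.05 ± 0.23, with 25 of 39 above 0, and -0.04 with nothing subtracted. Without tumour 2 the median in tumour 4 was 0.0065. In tumour 1 it was -0.0071 ± 0.13, with 19 of 39 above 0, and 0.13 with nothing subtracted. Its sign depended on the other tumours, with -0.063 without tumour 2 and 0.043 without tumour 3.

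Under the 4 scalings, which are the deposited values, this centring, one on the median of all detected genes and a further quantile normalization, the highest tumour was the same for 25 of the 39 members and the lowest for 28. By member, tumour 3 held the highest relative value for 17 of 39, where it did for 24.5% of detected genes, and tumour 2 the lowest for 18 of 39, where it did for 25.3%. In tumour 3 the highest were Syt4 at 0.65, Sv2c at 0.52, Vamp1 at 0.41, Syn2 at 0.32 and Syt7 at 0.30. In tumour 2 the lowest were Sv2a at -0.66, Syt4 and Syn2, both at -0.45, and Rims3 at -0.37, while Vamp7 was at 0.41 and Vamp3 at 0.25. Tumour 4 was the highest for 11 of 39, where it was for 28.9% of detected genes, and the lowest for 9 of 39, where it was for 28.7%. Its members reached extremes of both signs, from 0.67 for Sv2a and 0.40 for Syt11 to -0.44 for Cplx1. By role, the medians in tumours 1 to 4 were -0.11, -0.24, 0.17 and 0.12 for 8 synaptotagmins, and -0.0021, -0.28, 0.16 and 0.12 for 6 vesicle proteins. For the 3 endosomal and Golgi VAMPs they were 0.08, 0.25, 0.01 and -0.34, the other way in tumours 2 and 4. The neuronal SNAREs and the Rab3 GTPases also had medians below 0 in tumour 4, both at -0.13. Besides Cplx1, the other roles with detected members were above 0 there. Rab3 stood at 0.02 in tumour 2, where all other roles but these VAMPs were below 0.

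Markers of the tumour cells and of other cells moved between the same tumours. The median relative deviations of the 10 sympathetic markers were -0.04, -0.21, 0.10 and 0.25 in tumours 1 to 4, and their mean signal was 9.98, 9.86, 10.01 and 10.09. Of 12 macrophage markers 8 were detected, with a mean signal over all 12 of 7.14, 7.20, 6.68 and 7.13, and Adgre1, Aif1, Cd14 and Fcgr3 under the floor. Of 8 fibroblast markers 6 were detected, with a mean signal over all 8 of 7.20, 6.42, 6.64 and 6.23, and Lum and Pdgfra under the floor. Macrophage markers were thus lowest in tumour 3 and fibroblast markers highest in tumour 1. Of 5 Schwann cell markers 2 were detected, with a mean signal over all 5 of 6.66, 6.26, 6.01 and 6.17, highest in tumour 1 and lowest in tumour 3. Fabp7, a fatty acid binding protein of glia, measured 9.54, 8.49, 6.49 and 8.32, a range of 3.05, and the other detected one, the myelin protein gene Pmp22, 7.90, 7.31, 7.69 and 7.24, while Sox10, S100b and Erbb3 were under the floor. Only Fabp7 and Erbb3 were lowest in tumour 3. Sox10 and S100b were highest there, so the list did not move as one. The part of these cells in the members' values was not tested.

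**Figure D4:**
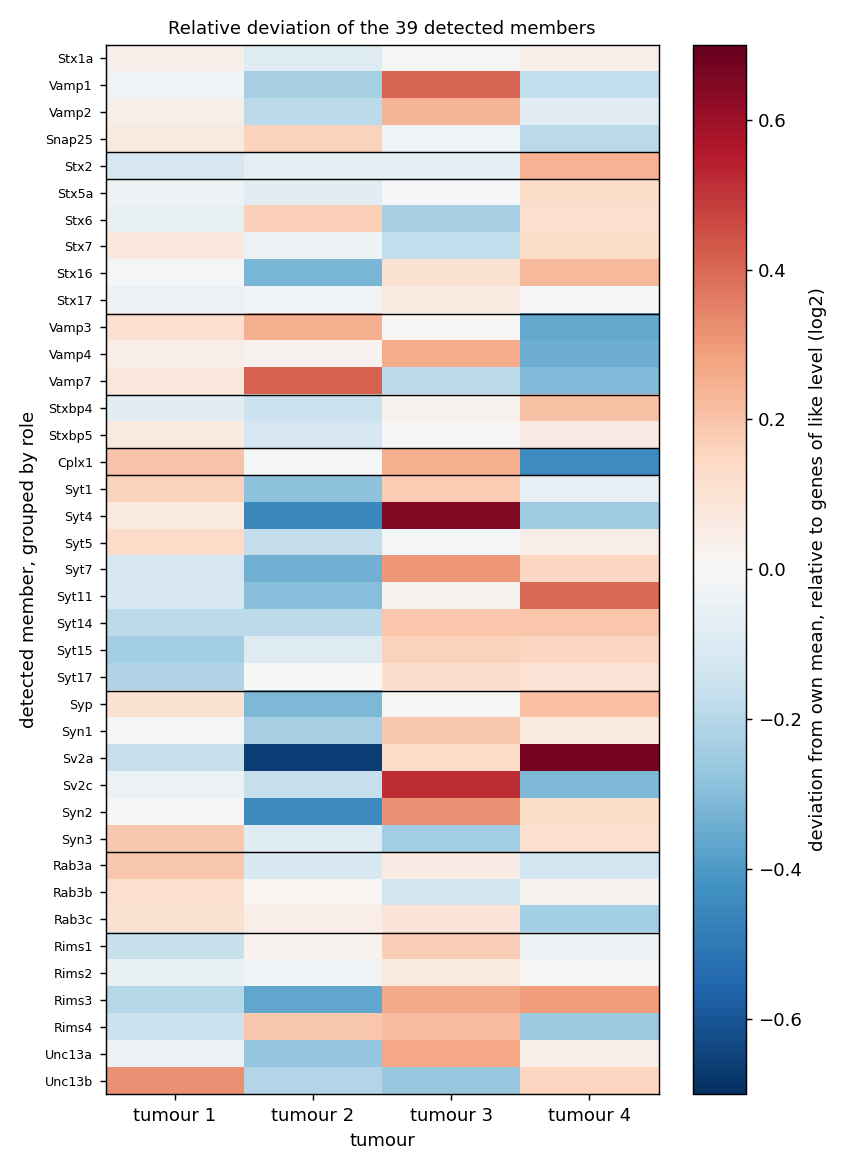
Deviation of the 39 detected members (rows, grouped by role) from their own mean in each tumour (columns), less that of detected genes of like level, in log2 units (colour, red above and blue below). The column of tumour 2 is mostly blue, with Vamp7 and Vamp3 red, and the column of tumour 3 is mostly red, with Syt4 and Sv2c the strongest.

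Other genes of vesicle release and recovery, outside the symbol rule, were mostly detected as well: 74 of 96 measured genes in 6 lists, where 40.5% of all genes were. Of these 74, 4 had a range of at least 1, where 4.26% of all detected genes did. Of the other SNAREs and the proteins that take the complex apart, 15 of 17 were detected. Napb, the neuronal form of the adaptor for the NSF ATPase, measured 8.27, 8.44, 7.57 and 7.42 in tumours 1 to 4, Vti1a, a SNARE of the Golgi, 6.56, 6.69, 5.84 and 6.00, and Bnip1, a SNARE of the endoplasmic reticulum, 8.15, 8.28, 7.60 and 7.56. These 3, like Vamp7, were higher in tumours 1 and 2 than in tumours 3 and 4, where Vti1a was under the floor. Detected genes at large were also split this way, with median deviations of 0.12 and 0.04 against -0.09 and -0.08. Of them, 5.14% differed by at least 0.5 between tumours 2 and 1, and 7.79% between tumours 4 and 3. The share ran from 13.7% to 17.4% when tumour 1 or 2 was set against tumour 3 or 4.

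Of the docking and active zone list 15 of 23 were detected. Apba1, an adaptor protein of synapses, measured 8.73, 8.23, 8.03 and 8.74, Bsn, the scaffold bassoon, 6.64, 6.17, 6.03 and 6.12, and Erc2, an active zone scaffold, 7.09, 6.63, 6.51 and 6.97. Each was lowest in tumour 3 as deposited. Of the release co-factors 12 of 16 were detected, among them Sncg, gamma-synuclein, at 8.57 ± 0.29, Doc2b, a calcium sensor, at 8.60 ± 0.26, and Scamp5, a vesicle membrane protein, at 9.10 ± 0.21 (SD, n = 4).

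Vesicle transporters set the cargo. Slc18a2, the vesicular monoamine transporter of sympathetic neurons, measured 10.27, 10.14, 10.57 and 10.33. Slc18a1, the form of chromaffin cells, measured 7.08, 6.39, 6.01 and 6.78, and Slc18a3, the acetylcholine transporter, 6.98, 7.34, 7.49 and 6.51. Slc18a1 was thus lowest in tumour 3, under the floor, while Slc18a3 and Slc18a2 were highest there. Slc6a17 was at the floor, at 6.17 ± 0.11 (SD, n = 4), and the other 6 of the 10 transporters were under it.

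Of the retrieval list, the proteins that take vesicle membrane back up, 19 of 21 were detected. Sh3gl2, endophilin A1, measured 10.87, 11.09, 10.66 and 10.06, Dnm1, the neuronal dynamin, 8.69, 8.51, 9.34 and 8.53, and Amph, amphiphysin, 8.40, 7.73, 7.95 and 7.65. Sh3gl2 was lowest in tumour 4, as Cplx1 was, and Dnm1 highest in tumour 3, as Syt4 was. The exocyst, which tethers vesicles to the plasma membrane in every cell, had 9 of 9 subunits detected. Exoc6 measured 7.09, 7.38, 6.28 and 6.86, Exoc5 7.81, 8.01, 7.37 and 7.69, and Exoc8 6.81, 6.30, 6.48 and 6.41.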

How the data were processed

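One-colour Affymetrix arrays of 4 tumours were analysed, 1 array each. The authors deposited log2-scale values, 41345 probe sets by 4 arrays, running from 2.47 to 13.6. RMA and Partek are named in the submitters' processing notes, without versions, settings or log base; log2 was inferred from this range. Genes came from the platform annotation: 23521 probe sets named a single gene and were used, 1814 named several (2 of them a member and another gene) and 16010 were unlisted. Entrez identifiers gave current symbols from RefSeq GRCm38.p6 for 23328. The members, lists and thresholds were chosen with earlier results of these data known.

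Detection, ranges and relative deviations were computed in Python 3.11.15 with pandas 2.3.3 and numpy 2.4.6, and the procedure was tested on simulated data. Dixon's ratio (distance of an extreme tumour from the next, divided by the range) was read against 0.829, the 95% value for 4 samples. All detected members were named; undetected ones were named by family, with values for the neuronal core and for others chosen after their values were seen. In related lists the 3 widest detected members were named. Any 2 arrays had at most 0.22% identical values, so none was a copy of another. Each was counted as a sample, though this cannot show that the tumours came from separate animals. The number of arrays limits the precision. Alternatives were other floors, the mean of a gene's probe sets, a further quantile normalization, other centring and leaving out each tumour.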

Additional observations from a re-analysis of the deposited data

Results flagged for a closer look

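In 2 of the 69 members 1 tumour lay far from the other 3, by Dixon's ratio, which chance passes in about 1 in 20 groups and which 4.55% of all 22180 genes passed. The members' count is thus no higher than that of genes at large. For Syt5 this was tumour 1, at 7.91 against 7.50 to 7.57 elsewhere, with a ratio of 0.849. For Syt13, which was under the floor, it was tumour 3, at 6.09 against 5.84 to 5.87, with a ratio of 0.874.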

How the results depend on the processing

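The number of detected members was 39; it was 37 to 42 with 1 tumour left out, 38 with the mean of probe sets, which lost Syt4, 39 after a further quantile normalization, 30 with a floor at percentile 99 of the receptor genes and 67 with a floor at their median. All genes detected numbered 5612 and 19086 with these 2 floors. The 1 member with a range of at least 1 was Sv2a; the count was 0 to 1 with 1 tumour left out (0 without tumour 2 and 0 without tumour 4), 0 with an SD of at least 0.5 and 18 with a range of at least 0.5. Over all genes that count was 228 to 273 with 1 tumour left out, 206 and 584 with the higher and the lower floor, 607 with no filter on level and 3151 with a range of at least 0.5. Detected vesicle transporters numbered 1 and 10 with those floors. The median relative shift was 0.13, -0.0043 and -0.042 in tumours 1, 3 and 4 when nothing was subtracted, since the arrays are offset. In tumour 2 it was below 0 in each alternative, from -0.16 to -0.07. In the alternatives that kept a subtraction it ran from -0.063 to 0.044 in tumour 1, from 0.054 to 0.11 in tumour 3 and from 0.0065 to 0.061 in tumour 4, so the sign in tumour 1 is not settled. Of 234 recomputed member means 3 moved by at least 1 SD, those of Rab3c, Syp and Syt4 with the mean of probe sets (7.50, 7.04 and 6.06). No paired analysis was possible because there is 1 group. Signal near background limits the 30 members under the floor.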

Other observations

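Slc17a6, the vesicular glutamate transporter of many excitatory neurons, was under the floor as a mean but not in each tumour. It measured 6.67 in tumour 3, above the floor, and 4.71, 4.72 and 5.32 in tumours 1, 2 and 4, a range of 1.97 log2 units. The other glutamate transporters, Slc17a7 and Slc17a8, stayed between 4.52 and 5.30 in all 4 tumours, and Slc32a1, the transporter of GABA and glycine, between 5.10 and 5.35. These genes were named after their values were seen.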
